A study of Mus musculus with 4 samples.

Results

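Keratins of the liver epithelium and markers of bile duct and progenitor cells were followed in mouse liver after partial hepatectomy. The set held 10 genes: the keratins Krt7, Krt8, Krt18, Krt19 and Krt23, the surface proteins Epcam and Cd24a, the transcription factor Sox9, the secreted protein Spp1 and the TWEAK receptor Tnfrsf12a. Every probe set whose platform annotation named exactly 1 of these symbols was taken, which gave 17 of 45037 probe sets for 9 of the 10 genes. Spp1 was not analysed here.

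Total RNA of mature liver from C57BL/6J mice was read on Affymetrix arrays 48 h after surgery. Sham surgery (2 arrays) served as the control of partial hepatectomy (2 arrays), in which part of the liver is cut away and the remainder regrows. The series calls the arrays of a group biological duplicates. The sources used here state neither age nor sex nor whether an array held 1 animal or a pool, so p-values measure only the spread between these arrays.

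Krt8, a type II keratin, and Krt18, a type I keratin, pair into the intermediate filaments of hepatocytes and are also made by bile duct cells. In adult mouse liver Krt7, Krt19, Epcam and Sox9 are known as markers of bile duct cells (cholangiocytes) and of the ductular cells called liver progenitors, which multiply when hepatocyte division is impaired. TWEAK is a cytokine of the tumour necrosis factor family that acts through Tnfrsf12a (also called Fn14) and drives ductular cells to multiply in mice.

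Tnfrsf12a, Krt18 and 1 of 3 Krt8 probe sets were higher after hepatectomy at an adjusted p of 0.05. Tnfrsf12a rose 4.57-fold (95% interval 2.40 to 8.70), Krt18 1.53-fold (1.28 to 1.83) and the called Krt8 probe set 1.65-fold (1.29 to 2.11), each from 2 arrays per group. Krt7, Krt19 and the brightest of 3 Sox9 probe sets lay above both sham arrays in both hepatectomy arrays without passing the test. Of all probe sets tested, 24.4% lay in that order. Krt23, Epcam and the 2 brighter Cd24a probe sets were high in hepatectomy replicate 1 and at or below the sham level in replicate 2.

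The promoters shown are those of the 3 genes with a called probe set. They are RefSeq sequences of build GRCm38.p6, from 250 bases before to 50 bases after the annotated start site. Capitals mark matches, on either strand, to 5 motifs. These were the TATA box, searched as TATAAA, then the motif called the CCAAT box, then the GC box, searched as GGGCGG, then the AP-1 site, searched as TGANTCA, and the NF-kB consensus. Krt8 lies at chr15:102004293-102004592 on the minus strand, Krt18 at chr15:102027966-102028265 on the plus strand and Tnfrsf12a at chr17:23677400-23677699 on the minus strand.
Krt8: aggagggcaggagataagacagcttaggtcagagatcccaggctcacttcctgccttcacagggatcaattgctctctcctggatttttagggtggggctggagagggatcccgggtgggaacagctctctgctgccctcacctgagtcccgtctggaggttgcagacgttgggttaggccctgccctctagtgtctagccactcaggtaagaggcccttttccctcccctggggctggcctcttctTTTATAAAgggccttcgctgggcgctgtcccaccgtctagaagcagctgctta
Krt18: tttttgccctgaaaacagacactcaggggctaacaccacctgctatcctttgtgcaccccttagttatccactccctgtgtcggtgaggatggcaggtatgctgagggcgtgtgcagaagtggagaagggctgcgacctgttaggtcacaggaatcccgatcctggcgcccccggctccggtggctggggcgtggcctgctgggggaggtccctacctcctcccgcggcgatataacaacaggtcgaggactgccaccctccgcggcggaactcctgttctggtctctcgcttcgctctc
Tnfrsf12a: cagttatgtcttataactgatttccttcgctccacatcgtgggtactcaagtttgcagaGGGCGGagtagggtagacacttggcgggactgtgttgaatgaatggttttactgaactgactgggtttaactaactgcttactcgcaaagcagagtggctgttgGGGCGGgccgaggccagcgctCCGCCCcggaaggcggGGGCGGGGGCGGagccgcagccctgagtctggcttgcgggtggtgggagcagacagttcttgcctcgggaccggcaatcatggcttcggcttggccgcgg
The Tnfrsf12a window held 5 GC box matches, which partly adjoin, and none of the other motifs. The Krt8 window held 2 overlapping TATA box matches, one on each strand, and the Krt18 window held no match. Of 32851 promoter windows of that length, 35.7% held a GC box match, 13.6% a TATA box match, 37.4% a CCAAT match, 7.81% an AP-1 match and 4.51% an NF-kB match. The start sites of Krt8 and Krt18 lay 23.9 kb apart on chromosome 15 with 0 protein-coding genes between them, and the genes are read away from each other. Promoter entries matched 7 of the 10 genes; Krt19, Sox9 and Cd24a had none.

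Signals are the authors' linear values, scaled by them to the same trimmed mean of 500.003 on every array, and fold changes were fitted on log2(signal + 8.58). A signal is comparable across arrays for 1 probe set, not between probe sets. Hepatocyte RNA was abundant on every array: albumin (Alb) had signals of 17980 and 15095 after sham operation and 16103 and 14969 after hepatectomy. Hepatectomy replicate 1 stood apart from the other arrays. Of 12 measured adrenal genes 11 were highest there, and their summed signal was 312 on each sham array, 23646 in hepatectomy replicate 1 and 262 in replicate 2. The adrenal enzyme gene Cyp11a1 had a signal of 2322 there and of 3.33 to 13.7 on the other arrays. Of 7 measured fat genes 6 were highest there, with sums of 1248 and 1370 after sham operation and 6961 and 2911 after hepatectomy. The fat hormone gene Adipoq gave 574 in replicate 1, 56.3 in replicate 2 and 4.02 and 6.29 on the sham arrays. The genes of the set are therefore given for each hepatectomy array and without replicate 1. The part of this other tissue in the values of the genes below was not tested.

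Of 15 probe sets that passed a filter on dim signals, 4 rose and 0 fell (limma, Benjamini-Hochberg adjusted over all probe sets), against 2.51% of 27022 probe sets higher and 0.877% lower. At an unadjusted p of 0.05, 9 of the 15 were higher and 0 lower, against 9.70% and 6.94% of all probe sets tested. Counted over genes by the brightest probe set, 2 of 9 rose, against 3.57% of 12560 genes, since the brightest Krt8 probe set did not pass. Without hepatectomy replicate 1, 2 of 14 probe sets and 1 of 9 genes were called, in each case Tnfrsf12a. Without sham replicate 1 limma called none of 15, with 6 at an unadjusted p of 0.05, and the counts were 9 probe sets and 5 genes without hepatectomy replicate 2. Both hepatectomy arrays lay above both sham arrays in 10 of the 15 probe sets, against 24.4% of all probe sets tested, and below both in 0, against 23.3%. The median fitted log2 difference was 0.66 over the 9 genes and 0.02 over all genes tested. Several of these probe sets measure the same gene and are not independent. With 1 array left out, here and below, that group holds 1 array. The residual spread in such a fit comes from the other group alone, so its p-values and calls are not counted as support.

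**Figure D1:**
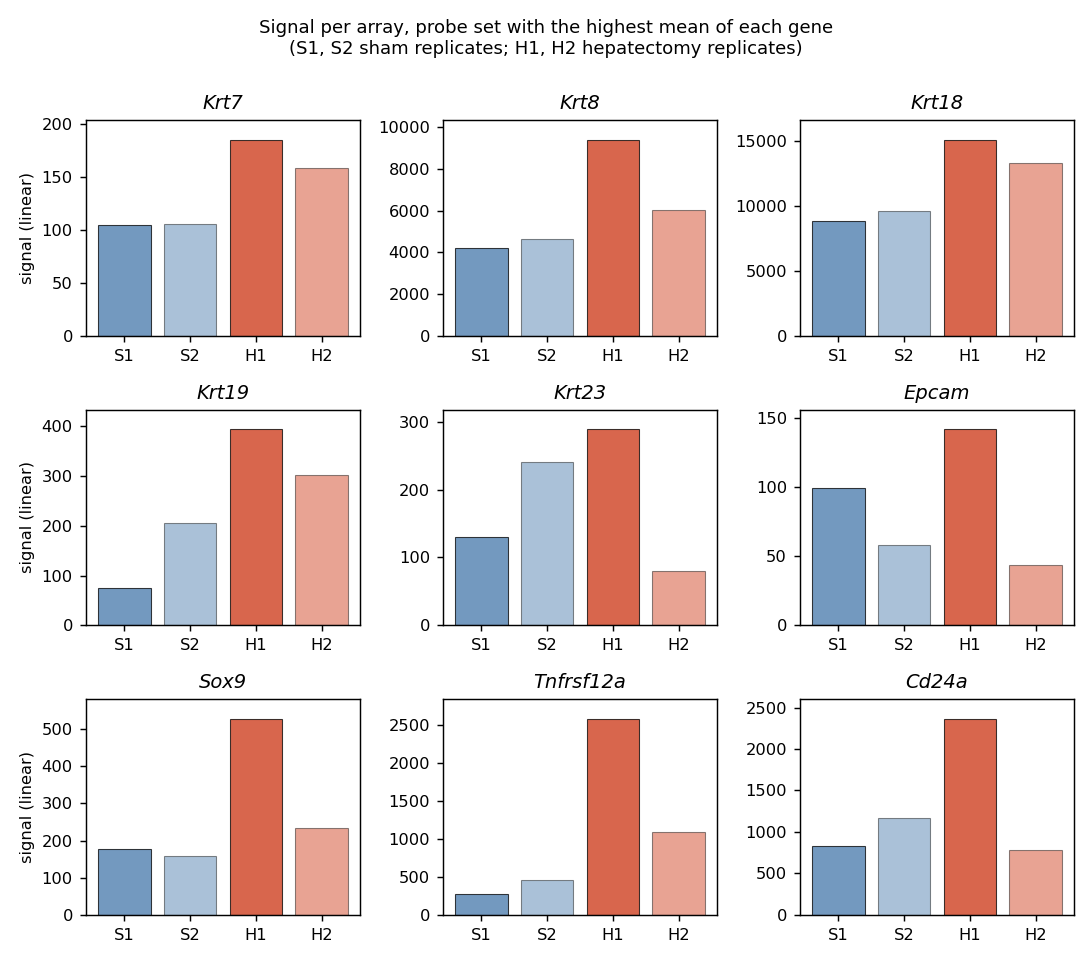
Linear signal (y axes, from 0) on the 2 sham arrays (S1, S2, blue) and the 2 hepatectomy arrays (H1, H2, red) for the brightest probe set of each of the 9 genes; each bar is 1 array. Hepatectomy replicate 1 is the highest array in all 9 panels, while replicate 2 lies above both sham arrays for Krt7, Krt8, Krt18, Krt19, Sox9 and Tnfrsf12a and below both for Krt23, Epcam and Cd24a.

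Tnfrsf12a had the largest fitted difference of the 9 genes. Its brighter probe set had signals of 277 and 466 after sham operation and of 2585 and 1085 after hepatectomy. The groups did not overlap, and hepatectomy replicate 1 was 2.38 times replicate 2. Its second probe set, of a type that can match other transcripts too, gave 265 and 317 against 2145 and 732 and so showed the same order of arrays within the hepatectomy group. The fitted log2 differences were 2.19 ± 0.40 (SE, adjusted p = 0.0269) and 2.08 ± 0.43 (adjusted p = 0.0428). Without hepatectomy replicate 1 the brighter probe set differed by 1.57, and without replicate 2 by 2.82. Its call was lost without sham replicate 1 (1.83, adjusted p = 0.162), without the filter (0.122), without a mean-variance trend (0.167), with robust eBayes (0.0938) and with the mean of both probe sets (0.0538).

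Krt18 had signals of 8869 and 9615 after sham operation and of 15108 and 13299 after hepatectomy. The 2 arrays of each group lay close together and the groups were apart. The log2 difference was 0.62 ± 0.11 (SE, adjusted p = 0.0252). Leaving out hepatectomy replicate 1 gave 0.53 (adjusted p = 0.109), and leaving out sham replicate 1 gave 0.56 (0.0931). The call was also lost without the filter (0.128), without a trend (0.256) and after median centring (0.53, adjusted p = 0.125).

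Krt8 was measured by 3 probe sets. The one not marked as matching other transcripts gave 4239 and 4638 after sham operation and 8401 and 6402 after hepatectomy (log2 difference 0.72 ± 0.15, SE, adjusted p = 0.0458). The other two, of a type that can match further transcripts, gave 4212 and 4627 against 9394 and 6008, and 3669 and 4000 against 8654 and 5680. All 3 showed the groups apart with hepatectomy replicate 1 higher than replicate 2. The latter pair differed by 0.77 ± 0.20 (adjusted p = 0.0909) and 0.87 ± 0.19 (adjusted p = 0.0544), so the 3 estimates lay within 1 standard error of each other although 1 passed. The call ended when sham replicate 1 (0.66, adjusted p = 0.216), sham replicate 2 (0.79, 0.105) or hepatectomy replicate 1 (0.53, 0.128) was left out, and without the filter (0.158), without a trend (0.254) and after median centring (0.64, 0.0915). Divided by the Krt18 signal of the same array, that probe set's signal came to 0.478 and 0.482 after sham operation and to 0.556 and 0.481 after hepatectomy. The ratio thus stayed close on 3 arrays and was higher in hepatectomy replicate 1.

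Krt7 and Krt19 are the keratins that bile duct cells make and hepatocytes normally do not. Krt7, a type II keratin, had signals of 105 on both sham arrays and of 185 and 158 after hepatectomy. Krt19, a type I keratin, had 74.6 and 204.9 after sham operation and 394 and 302 after hepatectomy. The sham arrays agreed for Krt7 and lay 1.36 apart on the log2 scale for Krt19, yet neither gene's groups overlapped. Krt7 was 1.58-fold higher in the fit (95% interval 1.02 to 2.46, adjusted p = 0.278) and Krt19 2.66-fold (1.34 to 5.26, adjusted p = 0.14). Neither passed, and the intervals are not adjusted for the number of probe sets. Krt19 passed only without sham replicate 2, its higher sham array (log2 difference 2.09, adjusted p = 0.0378), and in the fit with replicate number as a block, while without sham replicate 1 its difference was 0.73 (adjusted p = 0.567). Without hepatectomy replicate 1 the log2 difference was 0.56 for Krt7 (adjusted p = 0.504) and 1.22 for Krt19 (adjusted p = 0.204). In bulk tissue a higher share of bile duct cells and more RNA per cell cannot be told apart.

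Krt23, a type I keratin reported to be stress-induced in mouse liver, had signals of 129.7 and 240.8 after sham operation and of 289 and 79.6 after hepatectomy. The hepatectomy arrays enclosed the sham arrays, with replicate 1 above both and replicate 2 below both. The log2 difference was -0.20 ± 0.55 (SE, adjusted p = 0.906), a fold of 0.872 with a 95% interval of 0.362 to 2.10. Without replicate 1 it was -1.07 (adjusted p = 0.198).

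Epcam, an adhesion protein of epithelial cells, had signals of 99.3 and 57.9 after sham operation and of 142 and 43.8 after hepatectomy. Here too replicate 1 was the highest array and replicate 2 the lowest. The fold was 1.05 (0.457 to 2.40, adjusted p = 0.97), and the sign of the small difference turned after median centring and after quantile normalization. Without replicate 1 the log2 difference was -0.69 (adjusted p = 0.507). A second, dimmer probe set gave 18.2 and 49.5 against 36.9 and 13.1, with 2 arrays under 20.4, the highest signal of 27 bacterial control probe sets.

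Sox9, a transcription factor of bile duct cells, had signals of 178 and 158 after sham operation and of 528 and 232 after hepatectomy in its brightest probe set. Both hepatectomy arrays lay above the sham arrays, but replicate 1 was 2.27 times replicate 2. The fitted fold was 2.04 (95% interval 1.12 to 3.70, adjusted p = 0.215). Without replicate 1 the log2 difference was 0.45, and without replicate 2 it was 1.60. The other two Sox9 probe sets were too dim for the test. One gave 15.1 and 13.0 against 44.4 and 13.1, so that only hepatectomy replicate 1 exceeded the bacterial controls, and the other stayed below them on all 4 arrays.

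Cd24a, a glycosylated surface protein of progenitor cells and also of blood cells, was measured by 3 probe sets. The brightest gave 834 and 1166 after sham operation and 2367 and 778 after hepatectomy, and the next gave 597 and 763 against 1668 and 605. Both were high in replicate 1 alone. The dimmest gave 83.3 and 79.4 against 163 and 85.8, with replicate 2 just above the sham arrays. The log2 differences of 0.46, 0.57 and 0.50 had standard errors of 0.45, 0.41 and 0.36 (adjusted p = 0.688, 0.559 and 0.559). For the 2 brighter probe sets the difference was -0.34 and -0.16 without replicate 1 and 1.26 and 1.29 without replicate 2.

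Each hepatectomy array was set against the mean of the sham arrays on the log2 scale. Replicate 1 lay above both sham arrays in 14 of the 15 tested probe sets, against 41.0% of all probe sets tested, and replicate 2 in 10, against 35.8%. Replicate 1 was at least 2-fold above the sham mean in 8 probe sets, against 7.69% of all, and replicate 2 in 3, against 4.47%: those of Tnfrsf12a and that of Krt19. The median difference from the sham mean was 1.09 in replicate 1 and 0.45 in replicate 2, where all probe sets had 0.03 and -0.02. Replicate 1 exceeded replicate 2 in all 15 probe sets, against 54.0% of all, by a median of 1.07 against 0.04. The smallest gap was 0.18, for Krt18, and the largest 1.75, for Krt23. The 2 hepatectomy arrays thus differed by a median of 1.07 in absolute terms over these probe sets, more than the 0.25 between the 2 sham arrays, while over all probe sets these values were 0.27 and 0.23.

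**Figure D2:**
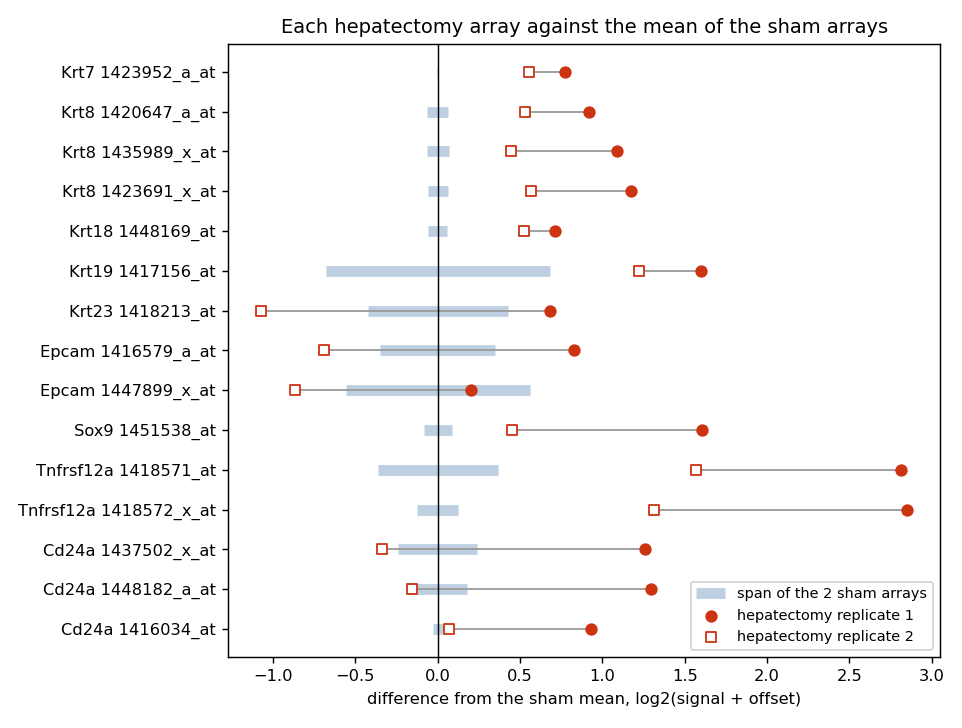
Difference of each hepatectomy array from the sham mean (x axis, log2 of signal plus offset) for the 15 tested probe sets (y axis); filled circles are replicate 1, open squares replicate 2, and blue bars span the 2 sham arrays. Replicate 1 lies to the right of replicate 2 in every line, and the gap runs from 0.18 for Krt18 to 1.75 for Krt23.

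**Figure D3:**
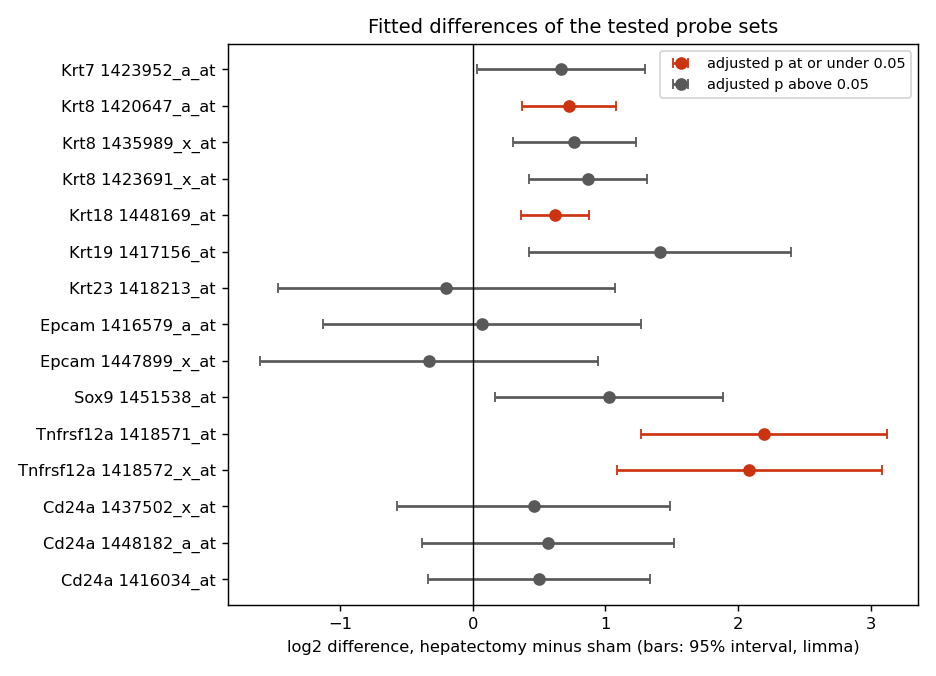
Fitted log2 difference of hepatectomy minus sham (x axis) with its 95% interval from limma (bars) for the 15 tested probe sets (y axis), 2 arrays per group. The 4 red points, both Tnfrsf12a probe sets, Krt18 and 1 of 3 Krt8 probe sets, have an adjusted p at or under 0.05; the intervals of Krt23, Epcam and Cd24a span 0.

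Most other keratins were dim. Of 26 measured keratin genes outside the set, 14 lay under the bacterial controls on all 4 arrays, 3 were tested and none passed in limma, nor at an unadjusted p of 0.05 (Krt10, Krt14 and Krt80, adjusted p from 0.582 to 0.879). These 3 exceeded the controls on every array, Krt10 by the most at 135 and 239 against 222 and 219. Among 16 partners of keratins and other intermediate filament genes 2 rose and none fell, against 3.57% and 1.09% of 12560 genes. At an unadjusted p of 0.05 in limma, 5 were higher and 0 lower, against 9.70% and 6.94% of all probe sets tested. Vim, the intermediate filament protein of mesenchymal cells, went from 2561 and 3232 to 6082 and 5069 (log2 difference 0.95 ± 0.16, SE, adjusted p = 0.0202). Lmnb1, a nuclear lamin, went from 361 and 408 to 908 and 951 (1.26 ± 0.20, adjusted p = 0.0136). The dimmer Lmnb1 probe set differed by 1.26 without a call (adjusted p = 0.0569). Leaving out sham replicate 1 ended both calls (adjusted p = 0.111 for Vim and 0.133 for Lmnb1), and leaving out sham replicate 2 ended that of Lmnb1 (0.0699). Both were lost without a trend (0.182 and 0.0816), and that of Vim without the filter (0.0904). Without hepatectomy replicate 1 the log2 difference was 0.81 for Vim and 1.29 for Lmnb1. With 1 array left out the list's calls ran from 0 to 5. The median of the 16 genes was 0.37, against 0.02 over all genes.

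Of 14 tested genes of TWEAK and non-canonical NF-kB signalling none rose or fell in limma, with 3 at an unadjusted p of 0.05 (2 higher, 1 lower), and their median was 0.04. Nfkb2, the precursor of the p52 subunit, gave 77.2 and 91.3 against 211 and 124 (0.88 ± 0.34, SE, adjusted p = 0.237). Its dimmer probe set went the other way (-0.35, adjusted p = 0.747). The kinase gene Map3k14 gave 14.0 and 53.2 against 108.5 and 67.1 (1.33 ± 0.52, adjusted p = 0.252). Its dimmer probe set differed by 0.58 (adjusted p = 0.514). The lower gene, Birc3, gave 754 and 807 against 609 and 525 (-0.46 ± 0.19, adjusted p = 0.289). Its dimmer probe set differed by -0.018 (adjusted p = 0.989). The choice of these 3 genes was made with their values known. The ligand gene Tnfsf12 had no probe set of its own. Osteopontin receptors gave 0 calls of 9 tested genes in limma, with 1 at an unadjusted p of 0.05. Cd44, which also binds hyaluronan, had 414 and 444 against 695 and 350, so that replicate 1 was highest and replicate 2 lowest, and the integrin subunit Itgav differed by 0.09 ± 0.15 (adjusted p = 0.843).

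None of 22 tested biliary transcription factor and Notch genes passed in limma, and their median was 0.02. At an unadjusted p of 0.05, 3 genes were higher and 3 lower. Counted over probe sets and not over genes, the shares of all tested were 9.70% and 6.94%. The genes lower were Foxa2 (-0.66, adjusted p = 0.202), Hhex (-0.61, adjusted p = 0.162) and Dll4 (-0.95, adjusted p = 0.213), named after their values were seen. Of those higher, Elf3 and Klf5 passed the filter only through the hepatectomy arrays, so their direction is not counted as a result. The receptor Notch2 differed by -0.20 ± 0.17 (SE, adjusted p = 0.626) and the ligand Jag1 by 0.13 ± 0.29 (adjusted p = 0.874). The Notch target Hes1 gave 91.2 and 70.0 against 188 and 122, with the groups apart but no call (adjusted p = 0.244).

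Among 13 tested partners of Epcam and junction genes 2 rose and none fell, against 3.57% and 1.09% of 12560 genes. At an unadjusted p of 0.05 in limma, 6 were higher and 0 lower, against 9.70% and 6.94% of all probe sets tested. The 2 called genes were claudins of tight junctions. Cldn1 went from 1114 and 1332 to 2970 and 3448 (log2 difference 1.39 ± 0.17, SE, adjusted p = 0.00421). With 1 array left out its difference ran from 1.26 to 1.52, and the call was lost without a trend (0.0822). The dimmer Cldn1 probe set differed by 1.21 without a call (adjusted p = 0.0538), and the dimmer Cldn2 probe set by 1.28 without a call (adjusted p = 0.174). Cldn2 went from 768 and 1068 to 1844 and 2412 (1.21 ± 0.22, adjusted p = 0.025), which was lost without sham replicate 1 (adjusted p = 0.168), without a trend (0.156) and without the filter (0.094). Without hepatectomy replicate 1 both passed (adjusted p = 0.000822 and 0.00357), and the list's calls ran from 1 to 4 with 1 array left out. In both genes, unlike in the 9 genes above, hepatectomy replicate 2 was the higher array. Cldn7, which binds Epcam, gave 91.2 and 95.3 against 165 and 94.4 (adjusted p = 0.642), and the cadherin Cdh1 did not pass (0.11 ± 0.20, adjusted p = 0.843).

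Of 15 tested genes on a list of other progenitor markers 1 rose, against 3.57% of 12560 genes. It was Lcn2, an acute phase gene as well, which went from 485 and 251 to 15286 and 11858 (log2 difference 5.23 ± 0.29, SE, adjusted p = 0.000433). Prom1, a surface marker of progenitor cells, gave 103 and 179 against 358 and 208 (adjusted p = 0.236). Afp, the fetal albumin relative, gave 65.2 and 106.4 against 247 and 209 (1.36 ± 0.32, adjusted p = 0.0636), and passed only without hepatectomy replicate 2 (adjusted p = 0.0438) among the fits that left out 1 array. Dlk1, named after its values were seen, gave 390 in hepatectomy replicate 1 and 3.56, 6.17 and 12.4 on the other arrays, a pattern like that of the adrenal genes. The list's 1 call became 4 after median centring, 2 with robust eBayes and 1 to 6 with 1 array left out; Lcn2 passed without each single array. At an unadjusted p of 0.05, 9 of the 15 were higher and 0 lower, against 9.70% and 6.94% of all probe sets tested. Of these 9, Dlk1, Igdcc4 and Mmp7 passed the filter only through the hepatectomy arrays, so their direction is not counted as a result. The list's median, 1.03, includes them, and 12 of its 19 measured genes were highest in hepatectomy replicate 1.

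Markers of cell types that can carry these genes were read on the same arrays. Over all 12560 genes, 3.57% were called higher and 1.09% lower. Of 14 tested bile duct markers outside the set 1 fell and none rose: Tff3, a secreted trefoil peptide, went from 381 and 326 to 140 and 147 (log2 difference -1.25 ± 0.25, SE, adjusted p = 0.0343), a call lost without sham replicate 1 (0.291) or sham replicate 2 (0.137), without the filter (0.0956) and without a trend (0.089). At an unadjusted p of 0.05 limma had 2 others, both higher: Pkhd1 (0.73, adjusted p = 0.243) and Slc10a2 (0.99, adjusted p = 0.271). Over all probe sets tested, 9.70% were higher at that p. Slc10a2 passed the filter only through the hepatectomy arrays, so its direction is not counted as a result. The list's median was 0.25. The summed signal of the 16 measured markers was 21730 and 19717 against 22535 and 20819, most of it from Ambp, which hepatocytes also make, at 14307 to 16283. The chloride channel gene Cftr gave 29.4 in hepatectomy replicate 1 and lay under the bacterial controls elsewhere. In 5 of the 16, replicate 1 was at least 2-fold above replicate 2 after adding the offset.

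Mesothelial cells of the liver surface also make keratins. Their 9 markers summed to 333 and 454 after sham operation and to 656 and 528 after hepatectomy. None of 6 tested passed in limma, among them Msln with 59.0 and 20.9 against 81.4 and 61.6. Upk1b alone reached an unadjusted p of 0.05, and it passed the filter only through the hepatectomy arrays. Cd24a is made by B cells, neutrophils and erythroid cells. The neutrophil genes S100a8 and S100a9 rose, from 177 and 110 to 4173 and 1204 and from 254 and 236 to 5649 and 2316 (adjusted p = 0.00636 and 0.0015), with replicate 1 the higher array, while the granule genes Ngp and Camp stayed under the bacterial controls on all arrays. The 9 measured B cell and neutrophil markers summed to 687 and 610 against 9966 and 3644, which S100a8 and S100a9 carried. The B cell genes were lower without a call: Cd79a gave 59.2 and 57.7 against 17.9 and 11.4 (adjusted p = 0.087) and Cd79b gave 102 and 118 against 32.3 and 51.9 (adjusted p = 0.112). Cd79a passed the filter only through the sham arrays, so its direction is not counted as a result. Ms4a1 differed by -0.74 (adjusted p = 0.46). The list's median over 5 tested genes was -0.74. The 5 measured erythroid markers summed to 3323 and 2579 against 1105 and 1779. Hepatocyte markers, 10 measured, summed to 132814 and 117064 against 125424 and 115464, and none was called or reached an unadjusted p of 0.05. The 9 macrophage markers summed to 12395 and 12758 against 12259 and 12379. Csf1r fell among them, and Trem2, at 3.88 and 4.49 against 82.7 and 100.5, passed the filter only through the hepatectomy arrays, so its call is not counted. The next brightest Csf1r probe set also fell (adjusted p = 0.0289), and the dimmest one tested differed by -0.64 (adjusted p = 0.197). At an unadjusted p of 0.05 without a call, Lgals3 (1.46, adjusted p = 0.0625) and Cd5l (0.46, adjusted p = 0.115) were higher. Clec4f was lower in that way (-0.58, adjusted p = 0.25). The 8 stellate cell markers summed to 6123 and 8256 against 11747 and 9850. Acta2, Col1a1 and Col3a1 rose among them, while Lrat (-0.75, adjusted p = 0.258) and Reln (-0.46, adjusted p = 0.299) were lower without a call and Rgs5 differed by 0.01. Of 6 tested fat genes Fabp4 rose, and of 2 tested erythroid genes Klf1 fell. The next brightest Fabp4 probe set also rose (adjusted p = 0.00834), and the dimmest one tested differed by 0.18 (adjusted p = 0.881). None of 10 tested adrenal genes, 2 pancreas genes and 6 endothelial genes passed in limma (1, 2 and 1 at an unadjusted p of 0.05). The adrenal gene at that p, Hsd3b1, passed the filter only through the hepatectomy arrays. Without a trend the calls of Fabp4, Klf1, Csf1r, Acta2, Col1a1, Col3a1 and S100a8 were lost, and without sham replicate 1 those of Fabp4, Klf1, Csf1r, Acta2 and Col3a1. Csf1r also lost its call without sham replicate 2 or hepatectomy replicate 1, and without the filter Fabp4, Csf1r, Col1a1, Col3a1 and S100a8 lost theirs. The 8 measured pancreas genes summed to 1508 and 1499 against 716 and 1110, and the 6 endothelial ones to 3463 and 3410 against 3371 and 3441. The part of these cells in the values of the keratin and progenitor genes was not tested.

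**Figure D4:**
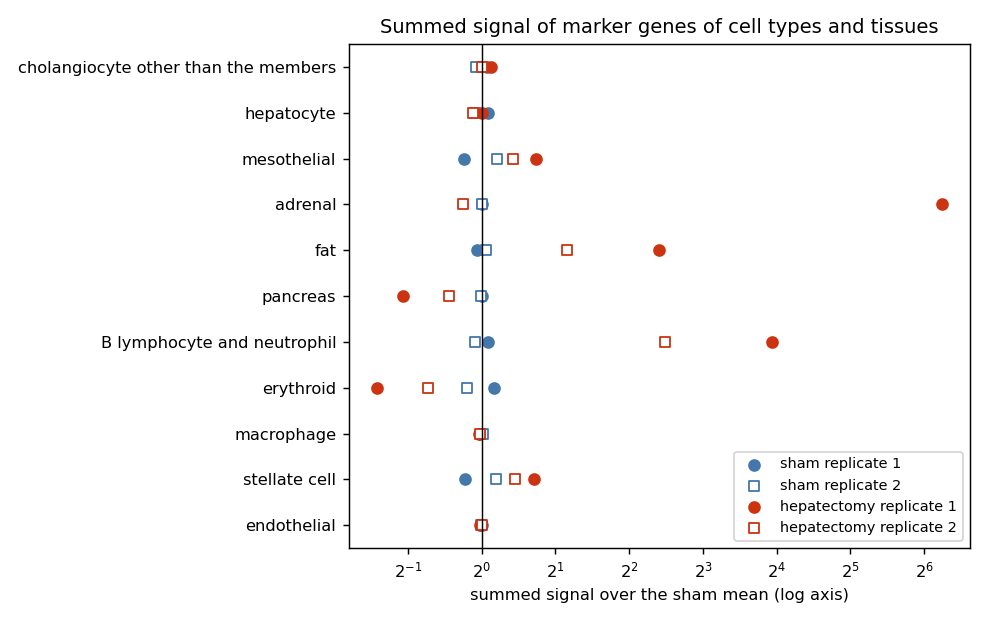
Summed signal of each marker list on each array divided by the mean of the 2 sham arrays (x axis, log scale) for 11 cell types and tissues (y axis); filled circles are replicate 1 and open squares replicate 2, blue for sham and red for hepatectomy. The adrenal sum stands apart in hepatectomy replicate 1 alone (23646 against 262 in replicate 2), and the fat sum and the B lymphocyte and neutrophil sum, the latter carried by S100a8 and S100a9, are higher in replicate 1 than in replicate 2.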

How the data were processed

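RNA of 4 mouse livers or pools was measured on Affymetrix arrays. The deposited intensity values are linear signals per probe set, made by the authors; per the submitters' processing notes the software was GCOS 1.4. The sources used here state neither its settings nor detection calls. After trimming 2% at each end every array had the same mean, so the authors' scaling was kept. The members, gene lists and tests were chosen with earlier results of these data known.

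Of 45101 probe sets 64 controls were left out; 34945 of the others had 1 symbol, 932 several and 9160 none. Signals were turned to log2 after adding 8.58, the 20th percentile. The 40% with the lowest mean were left out, which kept 27022. Groups were compared with limma 3.58.1 in R 4.3.3 (lmFit, eBayes with trend, two-sided, Benjamini-Hochberg over all 27022, called at 0.05), with 2 residual and 6.02 prior degrees of freedom. A gene was represented by its brightest tested probe set. The text names all members, up to 3 called genes per companion list with the smallest adjusted p, and Tnfsf12, Cd44, Itgav, Cldn7, Cdh1, Notch2, Jag1, Hes1, Vim, Prom1, Afp, Alb, Msln, Cyp11a1 and Adipoq; marker genes are given as sums with examples chosen after their values were seen. Some genes of the rule are not reported here. There were 7 companion lists and 11 marker lists. The code was tested on simulated data. The number of arrays limits the precision. Alternatives were other offsets, filters, scalings and eBayes settings, a replicate block, other probe set choices and leaving out each array.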

Additional observations from a re-analysis of the deposited data

How the results depend on the processing

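Over all probe sets, the 916 calls became 308 without the filter, 258 without a mean-variance trend and 1943 with a replicate block, and lay between 341 and 2012 with 1 array left out. The 4 called member probe sets became 0 without the filter, 0 without a trend and 8 with the replicate block, and lay between 0 and 9 with 1 array left out. The 2 called member genes became 0 without the filter, 0 without a trend, 1 with robust eBayes, 1 after median centring, 1 when the probe sets of each gene were averaged and 5 with the replicate block, and lay between 0 and 5 with 1 array left out. The cause of these shifts was not tested. The share of calls that were higher was 74.1%, 69.3% after median centring and 69.7% after quantile normalization. Doubling or halving the offset and a filter at the 20th percentile left the member counts at 4 and 2.

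The groups share replicate numbers only as labels: same-numbered arrays deviated together with a correlation of 0.102 over probe sets, from a single pair of deviations. With the replicate block, Krt8 (adjusted p = 0.00786), Krt19 (0.0192) and Sox9 (0.0488) were called beside Krt18 and Tnfrsf12a.

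The sign of the uncalled difference of Epcam turned from 0.07 to -0.019 after median centring, -0.0069 after quantile normalization and -0.13 with the mean of its probe sets. With 1 array left out it ran from -0.69 to 0.83, and from -0.89 to 0.20 for its dimmer probe set. The same range was -1.07 to 0.68 for Krt23, and -0.34 to 1.26 and -0.16 to 1.29 for the 2 brighter Cd24a probe sets. Among 126 values of the 9 genes under the alternatives, 101 kept sign and side of the threshold, 10 lost the call, 7 gained it and 8 turned sign.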
